A study of Mus musculus with 36 samples.

Results

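Retsat, Pon2, Fam213b, Gstm7, Cyp2d22, Sfi1 and Madd are 7 genes whose level in the hypothalamus set the mouse strain CAST/EiJ apart from 2 other strains. They are 7 of the 24265 genes in the deposited count matrix, were found there by gene symbol, and are all among the 20053 genes that passed the filter on low counts. They were chosen from these same libraries for their CAST/EiJ level, so their strain differences are given as a description, without a test. The study measured polyadenylated RNA of bulk hypothalamus, the brain region that controls feeding, body temperature and pituitary hormones, in 36 libraries. C57BL/6J is the common laboratory strain, NZO/HlLtJ is an inbred model of obesity and diabetes, and CAST/EiJ is a wild-derived inbred strain. All mice were wild type and received no treatment other than diet. From 6 weeks of age they ate a control diet with 10% fat or a high-fat, high-sugar (HFHS) diet with 44% fat, both with fiber, and tissue was taken at 15 weeks. Strain, diet and sex made 12 groups of 3 libraries, and nothing in the labels says whether the 3 came from separate animals, so spread between libraries may be partly technical.

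The submitters' processing notes name the genome build GRCm38, which is that of C57BL/6J. A lower CAST/EiJ count may therefore come from less RNA or from CAST/EiJ reads that no longer match the reference, and these cannot be told apart in count tables. Whether the reference also affected higher CAST/EiJ counts was not tested. In bulk tissue, fewer cells of a type and less RNA per cell cannot be told apart either. To 3 significant digits, library totals ran from 23900000 to 47300000 counts, and those of CAST/EiJ from 27500000 to 44300000 counts. No gene in the table had a count in fewer than 19 of 36 libraries, so a gene found in CAST/EiJ alone could not appear, whereas a gene missing from CAST/EiJ could. The first CAST/EiJ control female stood apart. Its 10 tested pituitary genes summed to 2480 CPM (counts scaled to a common library total), against 47.1 to 298 CPM in the other 5 CAST/EiJ control libraries, 35.5 to 75.6 CPM in the CAST/EiJ HFHS libraries and 20.4 to 55.9 CPM in the other strains, and its prolactin gene Prl was at 1330 CPM. Its counts also leaned toward short transcripts, by -0.143 log2 units per doubling of length, where the third CAST/EiJ control female had -0.0699 and the other 10 CAST/EiJ libraries -0.0254 to 0.0493.

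Of the 7 genes, 5 encode enzymes. Retsat encodes retinol saturase, an enzyme of the endoplasmic reticulum that reduces retinol. Pon2 encodes paraoxonase 2, an intracellular lactonase that limits oxidative damage. Fam213b, also called Prxl2b, encodes a thioredoxin-like enzyme that makes prostaglandin F and prostamide F. Gstm7 encodes a mu-class glutathione S-transferase, which joins glutathione to reactive compounds. Cyp2d22 encodes a cytochrome P450 of the drug-oxidizing family. The other pair acts in cell structure and secretion. Sfi1 encodes a centrin-binding protein of the centrosome, named after its budding yeast counterpart, and Madd encodes an exchange factor that loads GTP onto Rab3, a small GTPase of synaptic vesicles.

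The start regions of Retsat, Pon2 and Fam213b are shown because these had the widest CAST/EiJ gaps among the enzyme genes. Each is the 250 bases before the RefSeq transcript start on GRCm38.p6, read 5′ to 3′ on the gene's strand, at chr6:72598352-72598601 (plus strand) for Retsat, chr6:5298341-5298590 (minus strand) for Pon2 and chr4:154899044-154899293 (minus strand) for Fam213b. All 3 windows reach into the gene as the deposited table places it, since the RefSeq start lies inside that gene. Capitals mark the motifs found on either strand.
Retsat: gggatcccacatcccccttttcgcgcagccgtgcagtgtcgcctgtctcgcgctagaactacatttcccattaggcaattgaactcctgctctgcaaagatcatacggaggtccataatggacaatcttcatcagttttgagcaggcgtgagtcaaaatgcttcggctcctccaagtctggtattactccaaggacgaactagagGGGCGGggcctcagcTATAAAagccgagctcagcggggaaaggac
Pon2: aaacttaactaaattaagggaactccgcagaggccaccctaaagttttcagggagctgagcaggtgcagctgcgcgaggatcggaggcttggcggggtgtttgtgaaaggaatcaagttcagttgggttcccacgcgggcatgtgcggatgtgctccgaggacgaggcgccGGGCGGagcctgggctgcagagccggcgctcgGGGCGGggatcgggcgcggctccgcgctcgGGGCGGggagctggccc
Fam213b: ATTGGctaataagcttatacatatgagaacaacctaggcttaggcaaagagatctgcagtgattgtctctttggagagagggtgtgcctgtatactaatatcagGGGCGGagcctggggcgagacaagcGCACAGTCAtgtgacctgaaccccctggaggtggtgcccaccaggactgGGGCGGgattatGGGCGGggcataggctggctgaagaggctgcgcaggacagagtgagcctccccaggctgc
The motifs searched were the antioxidant response element core TGACNNNGC, the GC box GGGCGG, the TATA box TATAAA, the CCAAT box CCAAT and the E-box CACGTG, none of which overlapped another here. The Fam213b window held the antioxidant response element core on its reverse strand, 121 bases before the start, a match found in 10.2% of 32851 RefSeq promoters of this length. It also held 3 GC boxes and a CCAAT match. The Pon2 window held 3 GC boxes, at 79, 47 and 17 bases before the start, and the Retsat window held 1 GC box at 45 and a TATA box at 30. GC boxes stood in 32.7% of all promoters and TATA boxes in 12.4%. These are letters of the C57BL/6J reference and say nothing of the CAST/EiJ allele. The promoters of Gstm7 and Madd are not printed, and those of Sfi1 and Cyp2d22 were not used here.

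**Figure D1:**
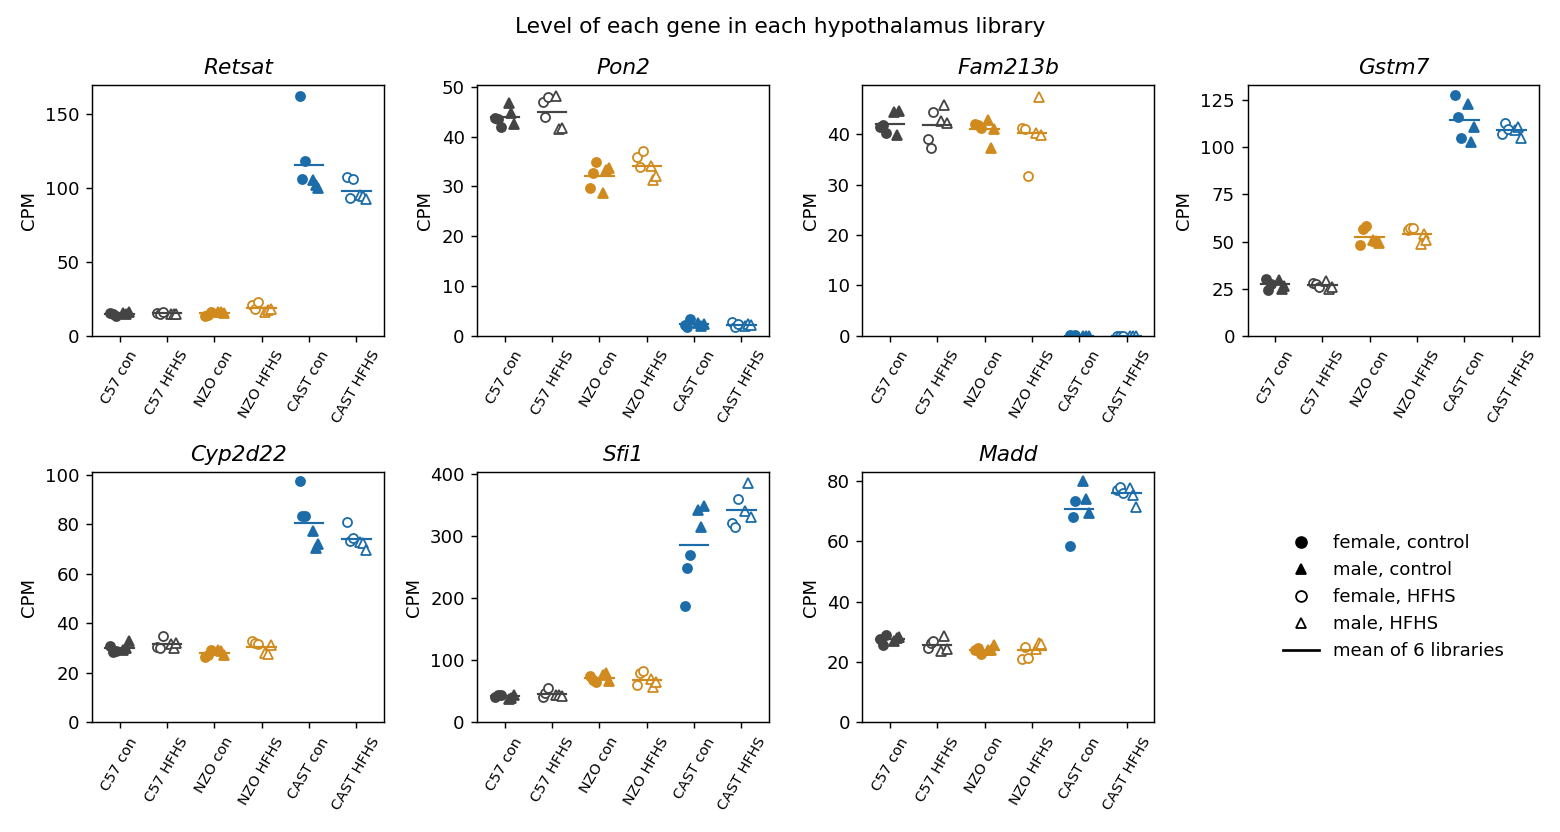
Level of each of the 7 genes in each of the 36 libraries, in CPM on linear axes that start at 0. Circles are females, triangles males, filled symbols control diet (con), open symbols HFHS diet, C57 is C57BL/6J, and lines are means of 6 libraries. For every gene the 12 CAST/EiJ libraries sit entirely above or below the 24 others, for example 92.3 to 162 against 13.3 to 23 CPM for Retsat.

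For each of the 7 genes, no CAST/EiJ library overlapped any library of the other strains, a pattern shared by 1487 of the 20053 tested genes (7.42%). Since the genes were chosen for it, nothing is read from that count. Retsat, Gstm7, Cyp2d22, Sfi1 and Madd were higher in CAST/EiJ, and Pon2 and Fam213b were lower.

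Retsat lies at chr6:72598475-72608425 on the plus strand (GRCm38, as are the positions of the other genes). In CAST/EiJ it was at 162, 106 and 118 CPM in control females, 105, 102 and 100 CPM in control males, 107, 93.1 and 106 CPM in HFHS females and 95.1, 94.3 and 92.3 CPM in HFHS males. In C57BL/6J its lowest, median and highest levels over 12 libraries were 13.3, 14.9 and 16.3 CPM, and in NZO/HlLtJ 13.4, 16.2 and 23 CPM. The 2 other strains overlapped each other, while the lowest CAST/EiJ library was still far above both. On control diet the CAST/EiJ mean was 116 ± 23.6 CPM (SD, n = 6), against 14.8 ± 0.852 in C57BL/6J and 15.2 ± 1.17 in NZO/HlLtJ. The fitted log2 difference was 2.95 ± 0.08 (SE) from C57BL/6J and 2.92 ± 0.08 from NZO/HlLtJ, or 7.75-fold and 7.56-fold. On HFHS diet the log2 differences were 2.71 and 2.39. The first control female, which stood apart above, was also the highest for Retsat, and without it the control-diet differences were 2.85 and 2.81. Of the 100-base windows of the longest Retsat transcript, 4.23% also occur in an antisense gene, Gm45053, deposited as RP23-335C3.10. That gene was at 1.75 ± 0.313 CPM in C57BL/6J, 1.92 ± 0.357 in NZO/HlLtJ and 1.85 ± 0.581 in CAST/EiJ on control diet (SD, n = 6).

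Pon2, at chr6:5264147-5298455 on the minus strand, was low in every CAST/EiJ library. Its levels there were 2.22, 1.77 and 3.42 CPM in control females, 2.65, 1.85 and 2.27 in control males, 2.79, 1.69 and 2.4 in HFHS females and 1.85, 2.29 and 2.11 in HFHS males. C57BL/6J libraries ran from 41.5 CPM over a median of 43.9 to 48.1, and NZO/HlLtJ libraries from 28.6 over 33.5 to 37.1. All 3 strains were thus apart from each other, with C57BL/6J highest. On control diet Pon2 was 18.6-fold lower in CAST/EiJ than in C57BL/6J (log2 difference -4.21 ± 0.11 SE) and 13.6-fold lower than in NZO/HlLtJ (-3.77 ± 0.11). On HFHS diet the differences were -4.36 and -3.96. A share of 21.2% of the windows of its longest transcript also lies in an antisense gene, Gm44424, which did not pass the filter, and the sources used here do not say whether counting used strand.

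Fam213b, at chr4:154895504-154899135 on the minus strand, was close to undetected in CAST/EiJ. It was at 0.0924, 0.0268 and 0.056 CPM in the 3 control females and at 0 in the other 9 libraries, 6 counts in all. C57BL/6J libraries ran from 37.2 CPM over a median of 42.1 to 45.7, and NZO/HlLtJ libraries from 31.7 over 41.2 to 47.4. These 2 strains overlapped. On HFHS diet all 6 CAST/EiJ libraries were at 0, so Fam213b was at least 2960-fold lower than in C57BL/6J and at least 2840-fold lower than in NZO/HlLtJ, taking 3 counts over the 6 libraries (0.0142 CPM) as the limit. The lower ends of the 95% intervals of these ratios were 2390 and 2330. On control diet the pooled ratio was 1440 from C57BL/6J (95% interval 661 to 3920) and 1390 from NZO/HlLtJ (640 to 3800). These intervals cover counting error only. Of the 10390 tested genes at 10 CPM or more in both other strains, Fam213b was the only 1 with a CAST/EiJ mean under 0.1 CPM. None of its 100-base windows occurs in another gene, and its overlap with the antisense neighbour Mmel1 is 25 bases.

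Gstm7, at chr3:107926334-107931817 on the minus strand, was lowest in C57BL/6J, intermediate in NZO/HlLtJ and highest in CAST/EiJ. C57BL/6J libraries were at 24.3 to 30.1 CPM (median 27), NZO/HlLtJ libraries at 48.3 to 58.3 (median 52.5) and CAST/EiJ libraries at 103 to 128 (median 110). No pair of strains overlapped. On control diet the log2 difference of CAST/EiJ was 2.07 ± 0.06 (SE) from C57BL/6J, or 4.19-fold, and 1.13 ± 0.06 from NZO/HlLtJ, or 2.18-fold. NZO/HlLtJ was itself 0.94 ± 0.06 above C57BL/6J. The nearest relative, Gstm2, matches Gstm7 at 86.2% of 644 aligned bases, and no 100-base window is shared.

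Cyp2d22, at chr15:82370528-82380260 on the minus strand, had the least spread of the 7 genes within groups, with a residual SD of 0.0799 log2 units against a median of 0.18 over all genes. Control females of CAST/EiJ were at 97.7, 83.3 and 83.2 CPM, control males at 77.2, 70.5 and 71.9, HFHS females at 81, 73.2 and 74.3 and HFHS males at 72.7, 72.3 and 69.8. C57BL/6J libraries ran from 28.6 over a median of 30.3 to 34.8 CPM and NZO/HlLtJ libraries from 26.3 over 29 to 32.9. The 2 other strains overlapped. The control-diet log2 differences of CAST/EiJ were 1.42 ± 0.05 from C57BL/6J (2.67-fold) and 1.52 ± 0.05 from NZO/HlLtJ (2.87-fold). On HFHS diet they were 1.23 and 1.28, and without the first control female the control-diet values were 1.37 and 1.47. Its nearest relative in sequence, Cyp2d11, matches at 86.9% of 819 bases and was not analysed here.

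Sfi1, at chr11:3131850-3193463 on the minus strand, had its widest spread within CAST/EiJ. CAST/EiJ control females were at 187, 249 and 270 CPM, control males at 342, 316 and 349, HFHS females at 321, 316 and 361 and HFHS males at 341, 387 and 331. C57BL/6J libraries ran from 38 over a median of 43.6 to 55.3 CPM, and NZO/HlLtJ libraries from 56.6 over 69.9 to 82.3. The strains did not overlap, and within CAST/EiJ the 3 control females were the 3 lowest libraries. The control-diet log2 difference of CAST/EiJ was 2.75 ± 0.09 from C57BL/6J (6.72-fold) and 1.96 ± 0.08 from NZO/HlLtJ (3.9-fold). On HFHS diet it was 2.90 and 2.31, and without the first control female the control-diet values were 2.81 and 2.02. A related gene, Gm2420, matches Sfi1 at 94.1% of 1369 bases, and it was at 0 in all 6 CAST/EiJ control libraries and at 0.217 ± 0.0626 CPM in NZO/HlLtJ.

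Madd, at chr2:91137360-91183837 on the minus strand, was at 58.5, 68 and 73.2 CPM in CAST/EiJ control females, 80, 74 and 69.4 in control males, 77, 77.9 and 76 in HFHS females and 77.4, 75.2 and 71.2 in HFHS males. C57BL/6J libraries ran from 23.6 over a median of 27 to 28.8 CPM and NZO/HlLtJ libraries from 21.1 over 24.1 to 26.3. These 2 strains overlapped, and the lowest CAST/EiJ library was the first control female. The control-diet log2 differences of CAST/EiJ were 1.35 ± 0.06 from C57BL/6J (2.56-fold) and 1.55 ± 0.06 from NZO/HlLtJ (2.92-fold), and 1.39 and 1.58 without that library. None of the windows of its longest transcript occurs in another gene.

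**Figure D2:**
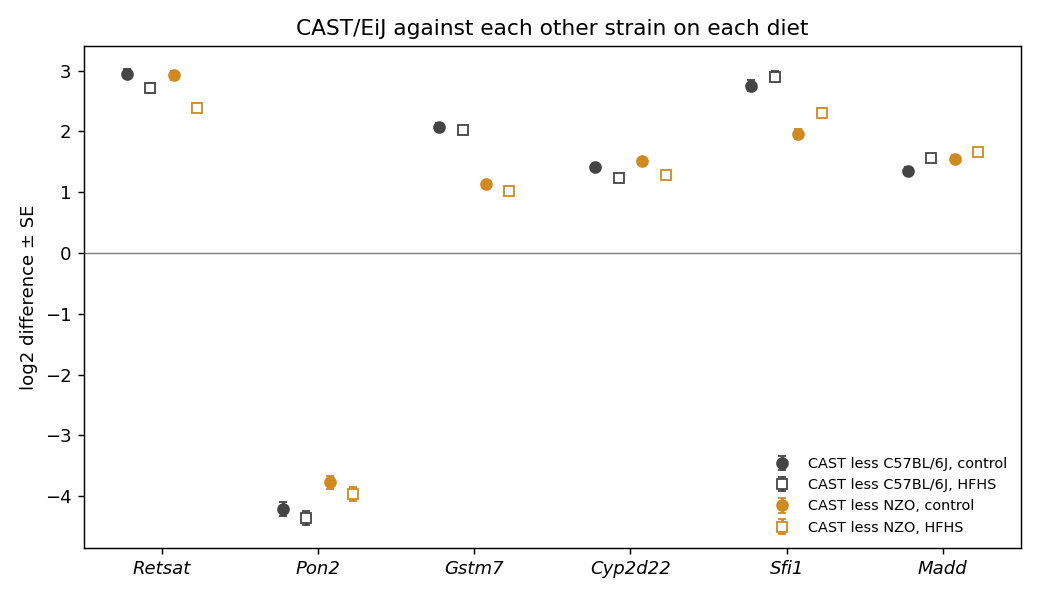
Log2 difference of CAST/EiJ from C57BL/6J (grey) and from NZO/HlLtJ (orange) on control diet (filled circles) and HFHS diet (open squares), with bars of 1 SE from the edgeR fit of all 36 libraries. Pon2 lies between -4.36 and -3.77 and the other 5 genes between 1.02 and 2.95; Fam213b has no fitted value because its CAST/EiJ counts are near 0.

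On the scale of the deposited VST values, which compresses differences of genes with lower counts, all 24 of these differences were smaller. On control diet, CAST/EiJ less C57BL/6J was there 2.17 for Retsat, -2.10 for Pon2, 1.63 for Gstm7, 2.38 for Sfi1, 1.09 for Cyp2d22 and 1.02 for Madd. CAST/EiJ less NZO/HlLtJ was 2.15 for Retsat, -1.77 for Pon2, 0.94 for Gstm7, 1.75 for Sfi1, 1.16 for Cyp2d22 and 1.15 for Madd. The fold values given for each gene thus hold for the count scale, and Pon2 moved most between the scales.

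Per kilobase of the longest transcript, the order of the 7 genes differed between strains. In C57BL/6J on control diet, mean levels in CPM per kb were 47.6 for Fam213b, 19.8 for Gstm7, 15.5 for Pon2, 9.75 for Sfi1, 8.84 for Cyp2d22, 4.9 for Retsat and 4.59 for Madd. The library ranges of Sfi1 and Cyp2d22 overlapped there, as did those of Retsat and Madd. In CAST/EiJ the order was Gstm7 at 82.9, Sfi1 at 66.6, Retsat at 38.2, Cyp2d22 at 23.7, Madd at 11.8, Pon2 at 0.833 and Fam213b at 0.0331. Gstm7 and Sfi1 overlapped in CAST/EiJ, from 74.8 to 93 and from 43.6 to 81.4 CPM per kb, and Sfi1 also overlapped Retsat, at 33 to 53.5. Fam213b thus went from the first place in C57BL/6J to the last in CAST/EiJ.

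The diet comparison asked whether the HFHS diet changed these genes, and whether it did so differently by strain. The genes were chosen for their CAST/EiJ level, and the CAST/EiJ control libraries that enter that choice also enter the diet contrasts. In the edgeR quasi-likelihood test, 1 result among the 7 genes passed an adjusted p of 0.05. The diet effect on Retsat differed between CAST/EiJ and NZO/HlLtJ by -0.53 ± 0.10 log2 units (SE, adjusted p = 0.0155), a contrast in which 1.8% of all tested genes were called. In NZO/HlLtJ, Retsat was at 13.4, 14 and 16.1 CPM in control females and 15.9, 16.1 and 15.6 in control males, against 20.4, 18.1 and 23 in HFHS females and 16.2, 17.1 and 18 in HFHS males. All 6 HFHS libraries were above all 6 control libraries. In CAST/EiJ the HFHS libraries were at 92.3 to 107 CPM and the control libraries at 100 to 162, and they overlapped. The diet change within a strain did not pass by itself: it was 0.30 ± 0.07 in NZO/HlLtJ (edgeR adjusted p = 0.111) and -0.23 ± 0.07 in CAST/EiJ (adjusted p = 0.112), and 0.01 ± 0.08 in C57BL/6J. Leaving out the first CAST/EiJ control female moved the difference between strains to -0.43 (adjusted p = 0.0119) and the CAST/EiJ change to -0.13. The call held without each of the 36 libraries in turn, with adjusted p from 0.000316 to 0.0309. The change within NZO/HlLtJ was called without the first CAST/EiJ control female, at 0.30 (edgeR adjusted p = 0.00704); that female is a library of another strain that enters the same fit of all 36. It was also called without the second CAST/EiJ control female (0.30, edgeR adjusted p = 0.0401) and without the third NZO/HlLtJ control female (0.34, edgeR adjusted p = 0.0466).

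**Figure D3:**
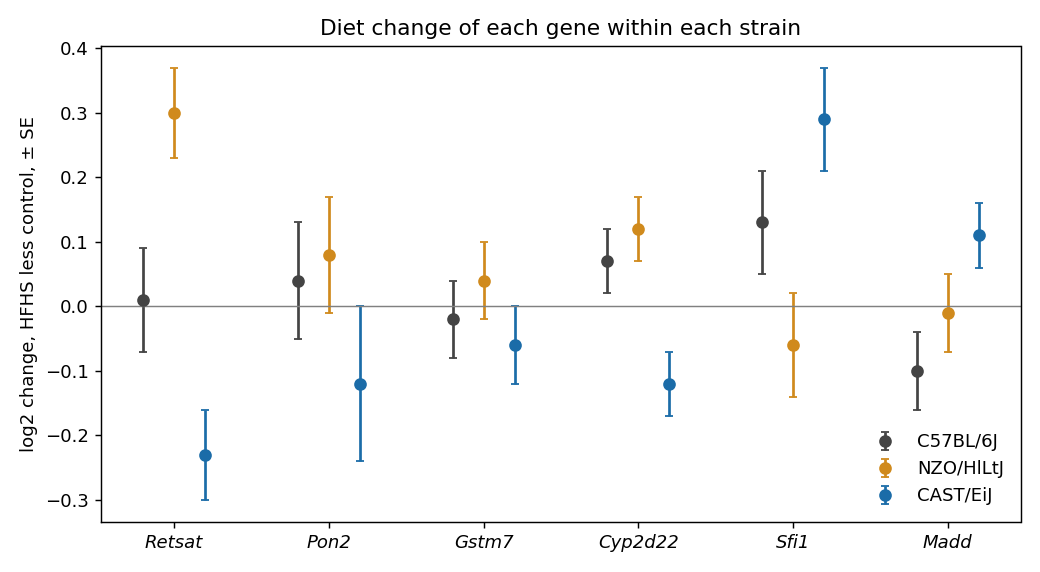
Log2 change from control to HFHS diet in each strain for 6 of the genes, with bars of 1 SE from the edgeR fit. Retsat is at 0.30 in NZO/HlLtJ and -0.23 in CAST/EiJ, and Sfi1 at 0.29 in CAST/EiJ; Fam213b is left out because its CAST/EiJ counts are near 0.

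No other diet result among the 7 genes passed. Within CAST/EiJ, where 0.12% of all genes were called, 3 of the 7 had an unadjusted p under 0.05 and none an adjusted one in edgeR, and DESeq2 called 1. Sfi1 was at a median of 293 CPM on control and 336 CPM on HFHS diet, a log2 change of 0.29 ± 0.08 (edgeR adjusted p = 0.105), which DESeq2 put at an adjusted p of 0.0351. Its control females, at 187 to 270 CPM, were below all 6 HFHS libraries, whereas its control males, at 316 to 349 CPM, lay among them. The log2 change of Cyp2d22 was -0.12 ± 0.05 (edgeR adjusted p = 0.197), that of Madd 0.11 ± 0.05, that of Pon2 -0.12 ± 0.12 and that of Gstm7 -0.06 ± 0.06. Within NZO/HlLtJ, where 0.145% of all genes were called, 2 of the 7 had an unadjusted p under 0.05 and none passed, and DESeq2 called Retsat at an adjusted p of 0.0317. Within C57BL/6J, 0 genes of all 20053 were called (0%, 687 at an unadjusted p under 0.05), and none of the 7 was under 0.05 before adjustment or called by DESeq2. Averaged over the strains, 0.0299% of all genes and none of the 7 were called by edgeR or DESeq2, and Sfi1 alone of the 7 was under 0.05 before adjustment.

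For the other genes, the difference between strains in the diet effect did not pass. CAST/EiJ less NZO/HlLtJ was -0.24 ± 0.07 for Cyp2d22 (edgeR adjusted p = 0.0603) and 0.35 ± 0.11 for Sfi1 (adjusted p = 0.0968). DESeq2 called Cyp2d22 here, at an adjusted p of 0.0268. CAST/EiJ less C57BL/6J gave no calls over all genes in edgeR (0%, 2041 at an unadjusted p under 0.05). Retsat, Cyp2d22 and Madd were the 3 of the 7 under 0.05 before adjustment there, at -0.25, -0.19 and 0.20, and DESeq2, which gave these 3 no adjusted p, called none of the 7. Fam213b could be followed in the other strains alone, where its diet changes were -0.01 ± 0.07 in C57BL/6J and -0.03 ± 0.07 in NZO/HlLtJ.

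The comparison of females with males in CAST/EiJ gave an unadjusted p under 0.05 for 3 of the 7 genes and no call in edgeR, with 0.185% of all genes called. Cyp2d22 was at 73.2 to 97.7 CPM in 6 females and 69.8 to 77.2 in 6 males, a female less male difference of 0.18 ± 0.05 log2 units (edgeR adjusted p = 0.102). Retsat was at 93.1 to 162 CPM in females and 92.3 to 105 in males, 0.23 ± 0.07 (adjusted p = 0.113, edgeR). Sfi1 was at 187 to 361 CPM in females and 316 to 387 in males, -0.30 ± 0.08 (adjusted p = 0.0997, edgeR). In all 3 the female range was the wider and overlapped the male one. DESeq2 called Sfi1 (adjusted p = 0.025) and Cyp2d22 (adjusted p = 0.0355). Without the first control female, the CAST/EiJ sex differences were 0.13 for Cyp2d22, 0.12 for Retsat and -0.24 for Sfi1. In C57BL/6J (0.194% of all genes called), in NZO/HlLtJ (0.0698%) and averaged over the strains (0.175%), none of the 7 was called by edgeR or DESeq2, with 0, 1 and 2 of them under 0.05 before adjustment. No difference between strains in the sex effect was called for any of the 7 in edgeR, nor for any other gene, in CAST/EiJ less C57BL/6J (0%, 3115 under 0.05 before adjustment) or less NZO/HlLtJ (0%, 1773). In the first of these DESeq2 called Sfi1, at -0.42 (adjusted p = 0.0421).

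Genes beside the 7 were compared on control diet, taking the nearest tested genes by start position, up to 2 on each side. Of these 27 neighbours, 13 were called in CAST/EiJ less C57BL/6J, 8 higher and 5 lower (48.1%, against 42.6% of all genes, 21.3% higher and 21.3% lower), and 13 in CAST/EiJ less NZO/HlLtJ, 10 higher and 3 lower (48.1%, against 42.9%, 21.8% higher and 21.2% lower). Beside Sfi1, the pseudogene Pisd-ps1, whose start is 5.95 kb below it, was at 166 ± 20.9 CPM in CAST/EiJ, 28.7 ± 7.27 in C57BL/6J and 18.3 ± 2.44 in NZO/HlLtJ (SD, n = 6). It was higher by 2.54 ± 0.13 and 3.18 ± 0.13 log2 units (edgeR adjusted p = 1.09e-16 and 8.21e-19). Gm11400, a pseudogene inside Sfi1, was also higher, by 1.70 and 1.18. Drg1, which overlaps Sfi1 and encodes a GTP-binding protein, differed by 0.09 from C57BL/6J (not called) and was 0.28 higher than in NZO/HlLtJ.

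Beside Pon2, its relative Pon3, which encodes another lactonase, was lower in CAST/EiJ at 1.18 ± 0.365 CPM, against 3.09 ± 0.392 in C57BL/6J and 3.45 ± 0.444 in NZO/HlLtJ. The differences were -1.41 ± 0.16 and -1.57 ± 0.16 (edgeR adjusted p = 3.34e-08 and 3.22e-09). Gm44250, next to it, was lower by similar amounts, -1.32 and -1.44. Beside Retsat, Elmod3 was higher by 0.32 and 0.27 (edgeR adjusted p = 0.00928 and 0.0255), but without the first CAST/EiJ control female it was 0.16 and 0.10 higher and not called. Beside Cyp2d22, the pseudogene Tdg-ps was at 0.0205 ± 0.0326 CPM in C57BL/6J, 2.63 ± 0.301 in NZO/HlLtJ and 5.63 ± 0.625 in CAST/EiJ and was called higher in both comparisons. Beside Gstm7, 4933431E20Rik differed by -3.87 ± 0.07 from C57BL/6J and by 0.67 ± 0.08 from NZO/HlLtJ. Mmel1, a metalloendopeptidase gene whose end overlaps Fam213b, was 0.79 ± 0.13 higher than in C57BL/6J and differed by -0.03 from NZO/HlLtJ. Mmel1 was at 4.09 ± 0.416 CPM in the CAST/EiJ control libraries, where Fam213b was at 0.0924 or less. Of the neighbours of Madd, none was called in both comparisons.

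**Figure D4:**
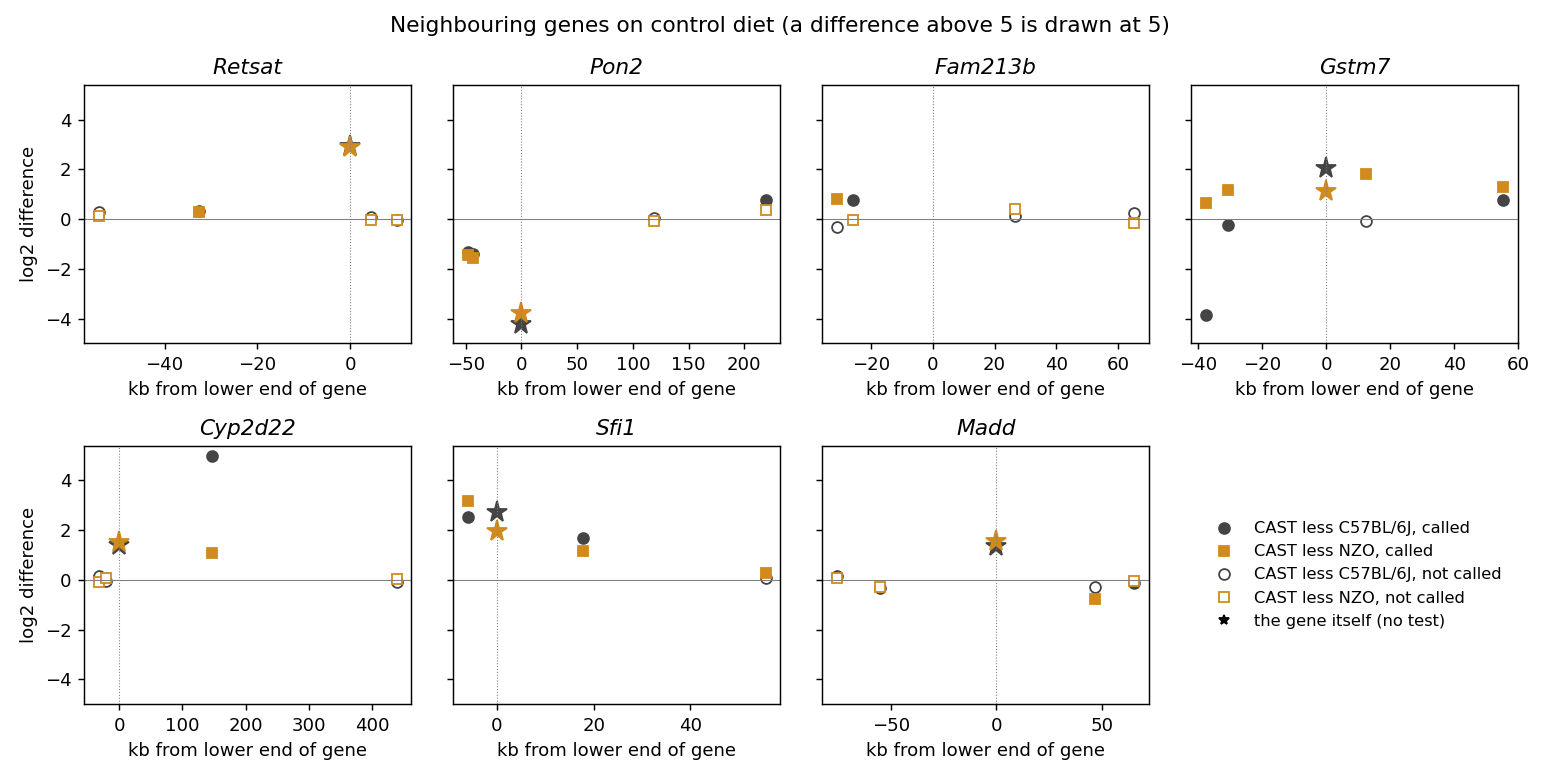
Log2 difference of CAST/EiJ from C57BL/6J (grey circles) and NZO/HlLtJ (orange squares) on control diet for the neighbours of each gene, against distance in kb from the lower end of the gene on the chromosome to that of the neighbour. Filled symbols passed an adjusted p of 0.05, stars are the gene itself, and values above 5 are drawn at 5; next to Sfi1, Pisd-ps1 is at 2.54 and 3.18, and next to Pon2, Pon3 is at -1.41 and -1.57.

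The mu-class glutathione S-transferases had other strain orders than Gstm7. Gstm2 was higher in CAST/EiJ, by 0.77 ± 0.24 from C57BL/6J and 1.31 ± 0.25 from NZO/HlLtJ (edgeR adjusted p = 0.0104 and 6.58e-05), at 4.44 ± 1.38 CPM. Gstm1 was higher by 0.35 and 0.40. Gstm5 differed by -0.24 from C57BL/6J and by 1.16 from NZO/HlLtJ, and Gstm6 was at -0.08 from C57BL/6J (not called) and 1.80 higher than in NZO/HlLtJ. Gstm4 was at 0.10 from C57BL/6J (not called) and at -0.89 ± 0.07 from NZO/HlLtJ. Gstm5 and Gstm6 thus had their lowest level in NZO/HlLtJ, where Gstm7 was intermediate. Fam213a, the relative of Fam213b, was at 108 ± 15.7 CPM in CAST/EiJ, 115 ± 2.94 in C57BL/6J and 84.1 ± 5.39 in NZO/HlLtJ. Its difference of -0.10 from C57BL/6J (edgeR adjusted p = 0.0438) lost its call without 1 library in 19 of 36 cases, and that of 0.35 from NZO/HlLtJ kept it in all 36.

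**Figure D5:**
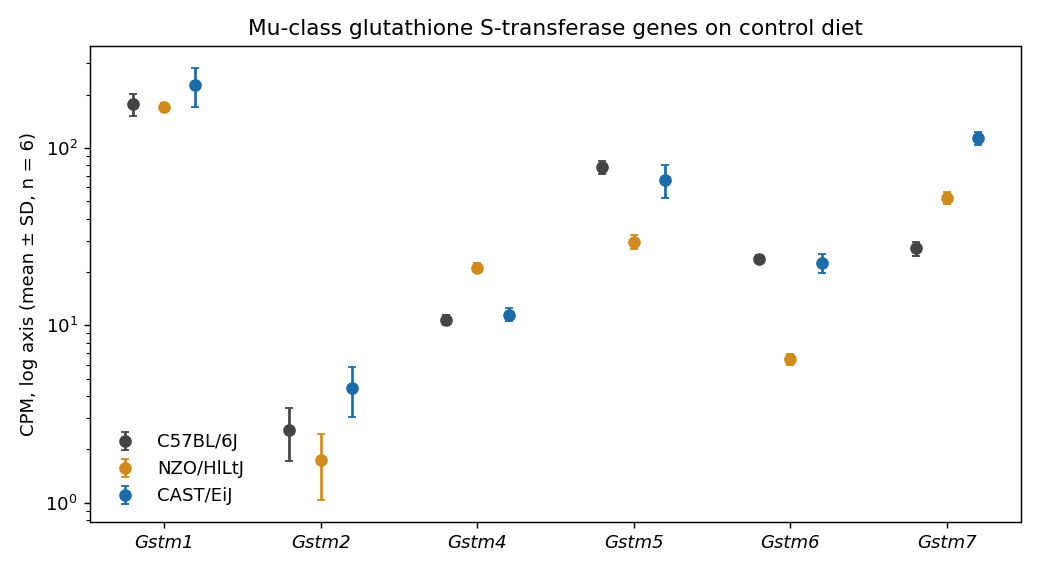
Control-diet level of 6 mu-class glutathione S-transferase genes in CPM on a log axis, as mean and SD of 6 libraries per strain. Gstm7 is lowest in C57BL/6J at 27.2 CPM and highest in CAST/EiJ at 114 CPM, while Gstm4 is highest in NZO/HlLtJ at 21.2 CPM and Gstm6 lowest there at 6.43 CPM.

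Genes that work with the 7 were read from 7 lists. Of 169 tested genes, 85 were called in CAST/EiJ less C57BL/6J, 50 higher and 35 lower (50.3%, against 42.6% of all genes), and 95 in CAST/EiJ less NZO/HlLtJ, 56 higher and 39 lower (56.2%, against 42.9%). The median log2 difference over all tested genes was 0.00198 from C57BL/6J and -0.000654 from NZO/HlLtJ. In retinoid metabolism, to which Retsat belongs, 8 of 30 were higher and 1 lower than in C57BL/6J (30% called, against 42.6% of all genes, median 0.04). Against NZO/HlLtJ, 8 were higher and 7 lower (50%, against 42.9%, median 0.01). Stra6, the retinol uptake receptor, was 1.38 ± 0.18 and 1.07 ± 0.18 higher. Crabp1, a retinoic acid binding protein, differed by -0.83 and -0.79. The retinol dehydrogenase genes Rdh5 and Rdh13 were 0.73 and 0.39 higher than in C57BL/6J, while from NZO/HlLtJ Rdh5 differed by 0.28 (not called) and Rdh13 by -0.40.

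In the defence against lipid peroxides, with Pon2, 8 of 17 genes were higher and 2 lower than in C57BL/6J (58.8% called, against 42.6% of all genes, median 0.18). Against NZO/HlLtJ, 11 were higher and 3 lower (82.4%, against 42.9%, median 0.21). Those higher included the glutathione peroxidases Gpx8, by 0.78 and 0.61, and Gpx4, by 0.34 and 0.33, and Msrb2, a methionine sulfoxide reductase, differed by -0.39 and -0.24. Of 25 glutathione genes, 11 were higher and 5 lower than in C57BL/6J (64% called, median 0.12), and 12 and 6 than in NZO/HlLtJ (72%, median 0.25). Gstp2 was 3.32 ± 0.17 and 3.24 ± 0.17 higher, from 0.961 and 1 CPM in the other strains to 9.85 CPM, and may share reads with its near copy Gstp1. Gsr, the glutathione reductase, was 0.58 and 0.51 higher. Gsta4 differed by -1.23 and -1.22 and Gstt1 by -1.09 and -0.86.

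Of 21 genes of prostaglandin synthesis and the peroxiredoxins, with Fam213b, 6 were higher and 5 lower than in C57BL/6J (52.4% called, against 42.6% of all genes, median 0.08). Against NZO/HlLtJ, 9 were higher and 4 lower (61.9%, against 42.9%, median 0.12). Hpgd, which inactivates prostaglandins, differed by -1.35 ± 0.18 and -0.99 ± 0.18. Prdx4 was 0.55 and 0.68 higher, Txn1 0.32 and 0.27 and Prdx3 0.30 and 0.28. Of 24 cytochrome P450 genes and their partners, with Cyp2d22, 10 were higher and 9 lower than in C57BL/6J (79.2% called, median -0.025). Against NZO/HlLtJ, 10 were higher and 5 lower (62.5%, median 0.14). Cyp4f15 was 1.52 and 1.17 higher and Cyp2j6 0.99 and 0.79 higher, whereas Cyp4f14 differed by -2.22 and -2.31 and Cyp4x1 by -0.97 and -0.81.

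Of 24 centriole genes, the list of Sfi1, 3 were higher and 5 lower than in C57BL/6J (33.3% called, against 42.6% of all genes, median -0.07), and 4 and 7 than in NZO/HlLtJ (45.8%, against 42.9%, median -0.035). Plk4, the kinase that starts centriole duplication, differed by -0.97 ± 0.12 and -1.01 ± 0.12, and Cep97 by -0.51 and -0.64. Cep120 differed by -0.24 from C57BL/6J and 0.02 from NZO/HlLtJ (not called). The centrin gene Cetn3 was 0.41 and 0.38 higher, and both of its calls were lost under 1 alternative processing. Of 28 genes of the Rab3 cycle and vesicle release, with Madd, 4 were higher and 8 lower than in C57BL/6J (42.9% called, against 42.6% of all genes, median -0.025). Against NZO/HlLtJ, 2 were higher and 7 lower (32.1%, against 42.9%, median -0.01). Rab27b, a secretory Rab, differed by -0.63 and -0.65, and Unc13b, a vesicle priming factor, by -0.57 and -0.88. Rab3d was 0.67 and 0.52 higher. Tnfrsf1a, the receptor whose death domain Madd binds, was 0.64 higher than in C57BL/6J and 0.22 from NZO/HlLtJ (not called).

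Markers of 9 cell types or tissues were read on control diet, beside 42.6% of all genes called in CAST/EiJ less C57BL/6J and 42.9% in CAST/EiJ less NZO/HlLtJ. Of 12 oligodendrocyte markers, 0 were higher and 10 lower than in C57BL/6J (83.3%, median -0.475), and 0 and 1 than in NZO/HlLtJ (8.33%). Their sum was 6340 CPM in the first CAST/EiJ control female and 2200 to 3650 in the other 5 CAST/EiJ control libraries. Control sums were 4410 to 6190 CPM in C57BL/6J and 3330 to 4280 in NZO/HlLtJ. On HFHS diet the sums were 2190 to 3010 CPM in CAST/EiJ, 4620 to 6930 in C57BL/6J and 3860 to 4530 in NZO/HlLtJ. Of 18 markers of hypothalamic neurons, all of which were tested, 7 were higher and 1 lower than in C57BL/6J (44.4%), and 5 and 3 than in NZO/HlLtJ (44.4%). Their sum was 2200 CPM in the first CAST/EiJ control female and 1030 to 1210 in the other 5, against 669 to 993 CPM in C57BL/6J and 887 to 1160 in NZO/HlLtJ. Of 12 astrocyte markers, 4 were higher and 2 lower than in C57BL/6J and 3 and 3 than in NZO/HlLtJ (50% in each). Of 10 microglia markers, 2 were higher and 5 lower than in C57BL/6J (70%), and 0 and 2 than in NZO/HlLtJ (20%).

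Of 12 genes listed for tanycytes and ependyma, cells that line the ventricle, 5 were higher and 1, Hdc, lower than in C57BL/6J (50%, median 0.07). Against NZO/HlLtJ, 8 were higher and 0 lower (66.7%, median 0.575). Of 10 tested pituitary markers, 6 were higher and 1 lower than in C57BL/6J (70%), and 5 and 2 than in NZO/HlLtJ (70%). The first CAST/EiJ control female, whose pituitary sum was 2480 CPM against 47.1 to 298 in the other 5, enters these calls. The pituitary calls without it were not tested. Of 12 choroid plexus markers, 2 were higher and 4 lower than in C57BL/6J (50%), and 2 and 5 than in NZO/HlLtJ (58.3%). Their control sum was 223 CPM in the first CAST/EiJ female and 281 to 363 in the other 5 CAST/EiJ libraries. It was 209 to 259 CPM in C57BL/6J and 211 to 271 in NZO/HlLtJ. On HFHS diet the sums were 329 to 413 CPM in CAST/EiJ, 185 to 279 in C57BL/6J and 189 to 293 in NZO/HlLtJ. Of 13 markers of endothelium and pericytes, 1 was higher and 4 lower than in C57BL/6J, and 3 and 2 than in NZO/HlLtJ (38.5% in each). Of 8 tested blood markers, 1 was higher and 0 lower than in C57BL/6J (12.5%), and 1 and 1 than in NZO/HlLtJ (25%). The part of these markers in the levels of the 7 genes was not tested.

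Over the 36 libraries, the log2 CPM of the 7 genes was most like that of other genes with a CAST/EiJ level apart from the rest. Since the libraries fall into strains, these values describe strain order and carry no test. Among 13740 genes, Retsat was most like Cyp2d22 (Pearson r = 0.991), followed by Tuba1c (0.99) and Tspan10 (0.989). Cyp2d22 was in turn most like Retsat, then Glo1 (0.99) and Rpl9 (0.988). Fam213b was most like Rps12-ps3 (0.997), the mitochondrially encoded mt-Co2 (0.995) and Pdxdc1 (0.994), and Pon2 like mt-Co2 (0.992), Fam213b (0.991) and Isca1 (0.991). As counted on GRCm38, mt-Co2 was at 3.19 to 27.5 CPM in CAST/EiJ, 1600 to 2500 in C57BL/6J and 1470 to 2060 in NZO/HlLtJ. Whether CAST/EiJ reads of mt-Co2 failed to match that reference was not tested. Gstm7 was most like Rsph1 (0.983), Apitd1 (0.979) and Dnah7a (0.969). Rsph1 had medians of 10.1 CPM in C57BL/6J, 27.8 in NZO/HlLtJ and 61.5 in CAST/EiJ. Beside this likeness, 5 of the 12 markers of tanycytes and ependyma (Foxj1, Ccdc153, Dnah11, Tmem212 and Rarres2) were called higher in CAST/EiJ than in both other strains on control diet. They were higher by 0.62 to 1.22 log2 units than in C57BL/6J and by 0.80 to 1.57 than in NZO/HlLtJ, with Rarres2 at 32 ± 17.4 CPM in CAST/EiJ (SD, n = 6), 13.5 ± 1.35 in C57BL/6J and 11.4 ± 1.33 in NZO/HlLtJ. On the same list, Hdc was lower than in C57BL/6J (-0.57), and Rax, Col23a1, Crym, Scn7a, Vcan and Slc17a8 (-0.12 to 0.07) were not called. From NZO/HlLtJ, Col23a1, Crym and Slc17a8 were called higher and the rest of these were not. Whether each gene of the list, Hdc among them, is particular to tanycytes and ependyma was not tested. The highest CAST/EiJ control library was at 33.9 CPM for Ccdc153 (mean 13.2 ± 10.2, SD) and 21.3 CPM for Tmem212 (mean 7.75 ± 6.64). Whether the calls of the 5 higher markers hold without such a library was not tested. All 12 markers summed to 491 CPM in the first CAST/EiJ control female and 210 to 265 CPM in the other 5, against 229 to 284 in C57BL/6J and 189 to 224 in NZO/HlLtJ. On HFHS diet the sums were 209 to 263 CPM in CAST/EiJ, 222 to 273 in C57BL/6J and 192 to 226 in NZO/HlLtJ, and overlapped. The part of these cells in the Gstm7 level was not tested. Sfi1 was most like Dynlt1c (0.985), Gsap (0.966) and Mbd1 (0.964), and Madd like Tas1r1 (0.986), Gtpbp6 (0.983) and Nlrc3 (0.982).

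With the mean of each of the 12 groups taken out, the closest genes changed, apart from Cyp2d22 and Retsat, which still had r = 0.692. Both were highest in the first CAST/EiJ control female, at 97.7 and 162 CPM, and their r without that library was not tested. Retsat was closest to Degs1 (0.799), Scp2 (0.783) and Sptssa (0.774). Madd was closest to Cyp46a1 (0.846), Fam219a (0.834) and Rhbdl1 (0.822), and Fam213b to Lamtor1 (0.875), Rpl36 (0.861) and Cox4i1 (0.855). Fam213b had 6 counts over all 12 CAST/EiJ libraries, so its values in this measure rest in part on counts near 0. Its likeness without those libraries was not tested. Gstm7 was closest to Cfap70 (0.709) and Efhb (0.706), and Cyp2d22 to Efhc2 (0.696), Retsat and Naa10 (0.68). Pon2 was closest to Ccer2 (0.72), Micalcl (0.708) and Star (0.675), and Sfi1 to Col6a6 (0.697), Pcdhb22 (0.697) and Adamts2 (0.695). Both values of a pair come from the same libraries and so share depth and RNA quality.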

How the data were processed

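Polyadenylated RNA of 36 mouse hypothalamus samples was measured with paired reads of 100 bases, per the labels' protocols. The authors deposited expected counts, meaning estimated counts per gene, per the file headers, and a second table on a log2 scale with stabilized variance (VST). The submitters' processing notes name DESeq2 and GRCm38. The sources used here do not give the aligner, the counting tool or the use of strand. The design assumed whole counts; 21.4% of the deposited values were not whole, so they were rounded, which moved library totals by at most 0.000186%.

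Genes were tested with edgeR 4.0.16 in R 4.3.3 (TMM, quasi-likelihood F-test on the 12 group means, 24 residual degrees of freedom), and p-values were adjusted by Benjamini-Hochberg over all 20053 tested genes. CPM were computed from the rounded counts, with a prior count of 2 for log2 CPM. Data were also simulated over 20053 genes, with changes placed in the CAST/EiJ HFHS libraries. Of 100 genes changed by 0.5 log2 units 81% were recovered, and of 100 changed by 1, 100%. Of the 195 calls, 14 (7.18%) were unchanged genes. The simulation gave each gene 1 mean over all strains and the same spread between libraries (12.1%), and changed only genes above 1 CPM. It held no library that stood apart, so the recovery may be too high for the deposited libraries. Alternatives used DESeq2 1.42.0 and limma 3.58.1. The genes, lists and rules were chosen with earlier results of these data known. Named neighbours are those called in both CAST/EiJ comparisons or overlapping 1 of the 7; named list genes are up to 4 per list with the smallest p against C57BL/6J, plus close relatives. Promoters came from RefSeq (GRCm38.p6) and matched 5 of the 7. For 1 of the genes of like pattern, the result is not reported here.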

Additional observations from a re-analysis of the deposited data

Results flagged for a closer look

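Of 41 sets of 6 libraries (1 gene in 1 strain on 1 diet), 4 held a library far from the others by Dixon's criterion, which chance meets in about 5% of sets. Retsat was at 162 CPM in the first CAST/EiJ control female, with the other 5 at 100 to 118. Retsat was at 16.3 CPM in the third C57BL/6J HFHS female, with the others at 14.5 to 15.1. In that same library Sfi1 was at 55.3 CPM, with the others at 41.7 to 46.8. Fam213b was at 37.3 CPM in the second NZO/HlLtJ control male, with the others at 41 to 42.9. A difference between strains in the effect of diet was found for Retsat, where CAST/EiJ less NZO/HlLtJ was -0.53 log2 units. The cause of these was not tested.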

How the results depend on the processing

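No paired analysis was possible because the labels give the groups no shared replicate numbers. All 7 genes kept CAST/EiJ libraries apart without each of the 36 libraries and in the 6 other alternatives where this was computed. They were chosen for that pattern, so this is no test of it. No result turned its direction. Genes of the 7 called changed as follows. For diet in CAST/EiJ less NZO/HlLtJ (1 called), DESeq2 and a filter of 1 CPM in 18 libraries gave 2 each, and leaving out 1 library gave 1 to 3. For diet in CAST/EiJ (0 called), DESeq2 gave 1 and leaving out 1 library 0 to 2. For diet in NZO/HlLtJ (0 called), DESeq2 gave 1, leaving out CAST/EiJ control females 1 and 3 together, a choice made after seeing the data, gave 1, and leaving out 1 library 0 to 1. For sex in CAST/EiJ (0 called), DESeq2 gave 2 and leaving out 1 library 0 to 3, and for the difference in sex from C57BL/6J (0 called) 1 and 0 to 2. The highest values came without the second CAST/EiJ control female, except for diet in NZO/HlLtJ, where 3 libraries gave the same value. The cause was not tested. The Retsat difference in diet effect was called under all alternatives, with adjusted p up to 0.0433. Counts of called neighbours and list genes stayed within 1.5 times. Besides Elmod3 and Fam213a, some named genes did not keep a call throughout. Under 1 alternative each, Cetn3 lost both calls, Gpx4 that from NZO/HlLtJ and Gstm5 that from C57BL/6J. Without 1 library, Gstm5 lost the same call in 3 of 36 cases, and Msrb2 its call from NZO/HlLtJ in 1 of 36. All 24 CAST/EiJ differences of the 6 genes other than Fam213b were smaller on the VST scale, for example -2.10 in place of -4.21 for Pon2 and 2.17 in place of 2.95 for Retsat (CAST/EiJ less C57BL/6J, control diet). Counting depth limits Fam213b in CAST/EiJ.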
